A study of Rattus norvegicus with 34 samples.

Results

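The endothelium of the left ventricle (LV) was followed through 46 genes that mark its identity, its adhesion to leukocytes and its transport of lipid across the capillary wall. They were taken as the rows of the array table whose gene symbol is on the list, with the brightest row over the LV arrays kept for each symbol, and 42 of the 46 had a row among the 29214 transcript clusters of the array. Vwf, Ptprb, Mmrn2 and Tcf15 were not listed in the table that pairs probes with genes and are not analysed here. Male Wistar rats had the proximal left coronary artery tied and were examined 2 months later. The infarcts were graded as small (S-MI, n = 6), moderate (M-MI, n = 6) or large (L-MI, n = 5), and control rats (sham, n = 6) had the same operation with the suture left untied. Each sample was hybridised to 1 Affymetrix Rat Gene 1.0 ST array, and values are log2 signals after robust multiarray average (RMA) normalisation. In infarcted rats the visibly unscarred part of the ventricle was used and in sham rats the whole ventricle. Comparisons with sham therefore also differ in the piece taken, whereas the same kind of piece was taken after every infarct. Peripheral blood mononuclear cells (PBMCs) of sham (n = 6) and L-MI rats (n = 5) were also on arrays. The description of the array titled L-MI replicate 1, in both LV and PBMCs, speaks of compensated injury, and it was kept in the group of its title.

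Endothelial cells line every vessel and are held together by junction proteins such as VE-cadherin (Cdh5) and PECAM-1 (Pecam1), which are used as markers of the cell type wherever it lies. In the heart most of them form capillaries that feed a muscle which burns mainly fatty acids: lipoprotein lipase is carried to the capillary lumen by GPIHBP1, the fatty acids it frees are bound by FABP4 and FABP5, and glycerol and water pass through aquaporins. Inflamed endothelium shows selectins, ICAM-1 and VCAM-1 to passing leukocytes, while VEGF receptors, angiopoietins, apelin, sphingosine-1-phosphate (S1P) and Notch ligands govern its growth and quiescence.

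In LV of L-MI rats 0 of the 11 junction and surface markers of endothelial identity were called, while 3 genes fell: the channel Aqp7, the lipase carrier Gpihbp1 and the peptide ligand Apln. These 3 were 7.14% of the 42 measured genes, where 1.14% of all transcript clusters were called lower (limma, with a call needing a 1.3-fold change and a p of 0.05 or less after Benjamini-Hochberg adjustment over all clusters). None of the 42 was called higher, against 2.08% of all clusters, and 3.22% were called in either direction. At an unadjusted p under 0.05, 5 of the 42 were higher and 14 lower (45.2% in all), where 9.8% of all clusters were higher and 11.7% lower (21.5%). All clusters are an unlike set, since they include dim and unnamed ones, while 0 of the 42 were among the 30% dimmest in LV. The median log2 fold change was -0.08 over the 42 genes and -0.0059 over all clusters. Compared with sham, S-MI and M-MI had 0 called genes in either direction on the list and among all clusters alike. In whole tissue, fewer endothelial cells, less RNA of a gene per cell and a change in other cells that carry it cannot be told apart.

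A set of 4 LV arrays (sham replicates 4 and 6, S-MI replicates 4 and 5) stood apart at the low end of the first principal component (-138 to -112, the next at -52.0), and L-MI replicate 4 stood apart at the high end (165, the next at 64.8). Results that rest on these arrays are given without them where they change. The median of an array's log2 signals lay between 6.52 and 6.61. In LV none of the 42 genes was among the 30% dimmest transcript clusters and 38 were above the median cluster, with Plvap, Vcam1, Sele and Selp below it. Among marker lists of other cell types, 8 of 8 macrophage and 4 of 7 fibroblast genes were called higher in L-MI than in sham. For cardiomyocytes 0 of 8 genes were called, although 4 were lower at the adjusted p without the fold. For pericytes and smooth muscle 0 of 8 were called, with 3 higher and 1 lower at the adjusted p without the fold.

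Capillary lipid handling and channels held the largest changes of the 6 role groups. Aqp7 encodes an aquaglyceroporin, which lets glycerol and water through the membrane. Its log2 signal ran from 11.32 through a median of 11.45 to 11.55 in the 6 sham arrays, and was 10.26, 10.67, 9.69, 10.27 and 9.75 in the 5 L-MI arrays. Each L-MI array was lower than each sham array, as in 3.87% of all clusters, and also lower than each S-MI and M-MI array. The difference from sham was 2.48-fold (log2 -1.31, SE 0.17, adjusted p = 2.4e-05). In S-MI the signal ran from 11.28 to 11.63 and in M-MI from 10.74 to 11.75. M-MI replicates 4 and 5, at 10.95 and 10.74, lay below all sham arrays but above all L-MI arrays.

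Gpihbp1, the protein that binds lipoprotein lipase and moves it across the capillary cell, was the other lipid gene that fell. Sham arrays ran from 10.05 through a median of 10.34 to 10.59, and the L-MI arrays were at 9.34, 9.67, 9.49, 8.92 and 9.67. The 2 groups did not overlap. The level in L-MI was 1.88-fold lower (log2 -0.91, SE 0.17, adjusted p = 8.3e-04). M-MI arrays spread from 9.35 to 10.51, and replicate 5, at 9.35, lay inside the L-MI range. The same 2 M-MI replicates, 4 and 5, were thus the lowest of their group for both Aqp7 and Gpihbp1, and they also had the highest second principal component scores of that group, nearest to those of L-MI. No M-MI replicate was left out on this ground.

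Of the other 6 genes of this role group none was called, although all 6 had a negative log2 fold change. Cav2, a partner of caveolin-1 in the caveolae of capillary cells, ran from 9.71 through 9.76 to 9.93 in sham and was 9.51, 9.62, 9.52, 9.40 and 9.41 in L-MI. These ranges did not overlap, and the adjusted p was 0.0055, but the log2 fold change of -0.31 (SE 0.07) was under the fold threshold of 0.38. Fabp4, the fatty acid binding protein of capillaries, adipocytes and macrophages, had a mean of 9.94 ± 0.17 (SD, n = 6) in sham and 9.63 ± 0.18 (n = 5) in L-MI (log2 fold change -0.30, adjusted p = 0.052), with overlapping arrays. Its relative Fabp5 differed from sham by -0.0044 (95% interval -0.15 to 0.14). Cav1, the main coat protein of caveolae, differed by -0.12 (-0.24 to -0.0014) and the water channel Aqp1 by -0.11 (-0.23 to 0.02). The transcription factor Meox2, which acts with Tcf15 in heart capillaries to drive fatty acid uptake, differed by -0.02 (-0.26 to 0.21).

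**Figure D1:**
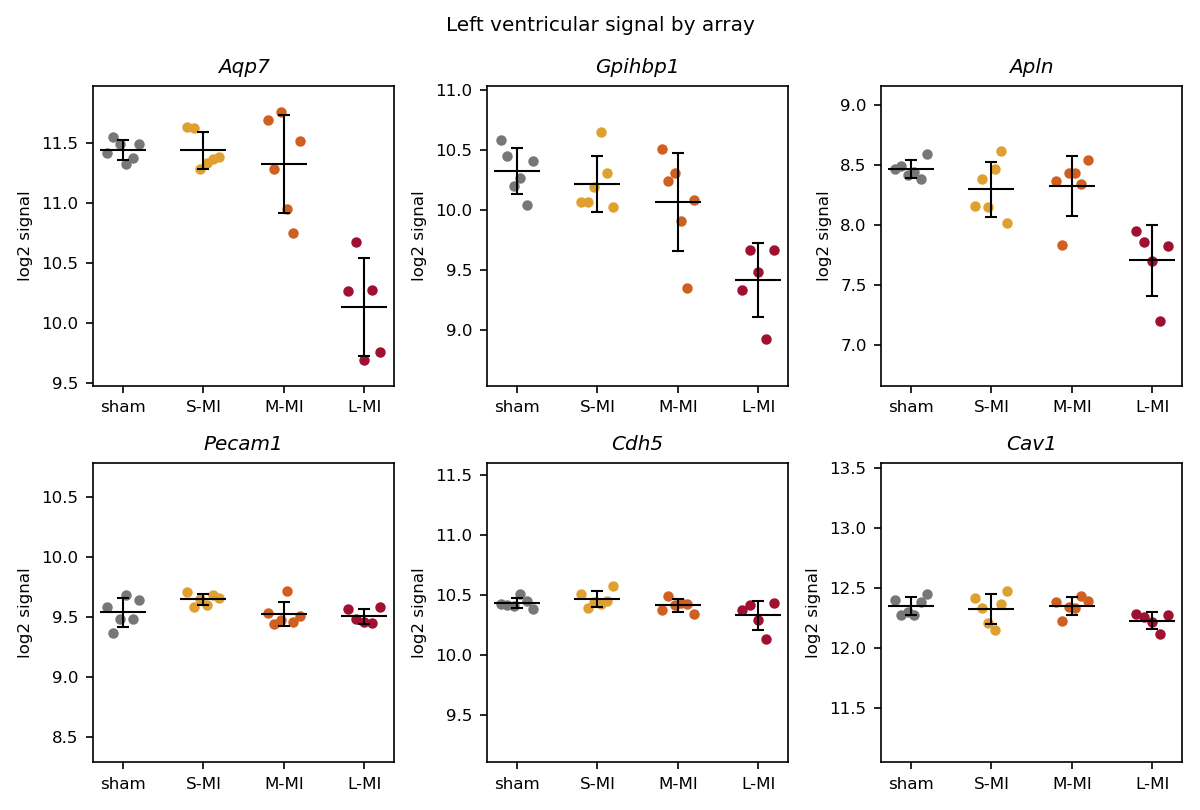
Log2 signal (y axis, each panel spanning 2.5 units) of 6 genes in every LV array of sham, S-MI, M-MI and L-MI; points are arrays and bars the mean with its SD. Aqp7, Gpihbp1 and Apln lay lower in all 5 L-MI arrays than in all 6 sham arrays, while Pecam1, Cdh5 and Cav1 changed by -0.03, -0.10 and -0.12.

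Averaged over its 8 genes, the capillary lipid group deviated from the sham mean by -0.39 ± 0.12 (SD, n = 5) log2 units in L-MI, with arrays between -0.54 and -0.21. Sham arrays ran from -0.08 to 0.06, S-MI arrays from -0.08 to 0.05 and M-MI arrays from -0.21 to 0.03. By the mean, L-MI did not overlap sham or S-MI, while the highest L-MI and the lowest M-MI array met at -0.21. By the median of the 8 genes in each array, L-MI ran from -0.40 to -0.08, and its replicate 2, at -0.08, lay above S-MI replicate 3, at -0.14. The means are thus set largely by Aqp7 and Gpihbp1. These are descriptions of a group chosen with earlier results known and carry no test.

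Apelin, encoded by Apln, is a peptide that endothelial cells release and that acts through the receptor APJ (Aplnr) on endothelium and heart muscle. Its sham arrays ran from 8.38 through 8.45 to 8.59, and the L-MI arrays were at 7.94, 7.85, 7.69, 7.19 and 7.83. No L-MI array reached the sham range. Apln was 1.69-fold lower in L-MI (log2 -0.76, SE 0.13, adjusted p = 3.5e-04). M-MI arrays ran from 7.83 to 8.54 and S-MI arrays from 8.01 to 8.62, and M-MI replicate 2, at 7.83, was the 1 array of these 2 groups that lay within the L-MI range. The receptor Aplnr ran from 9.31 through 9.59 to 9.68 in sham and was 9.46, 9.26, 9.10, 9.57 and 9.24 in L-MI, which overlap (log2 fold change -0.22, SE 0.13, adjusted p = 0.35). The S1P receptor S1pr1, which keeps the endothelial barrier tight, differed by 0.01 (-0.16 to 0.18) and the Notch ligand Dll4 of arterial and sprouting cells by -0.01 (-0.17 to 0.15). Only Apln was therefore called in this role group of 4.

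Aqp7, Gpihbp1 and Apln were also the 3 genes called lower in L-MI against M-MI (0.695% of all clusters were called lower) and against S-MI (0.911%). These comparisons share the L-MI arrays. Aqp7 differed by -1.19 from M-MI (adjusted p = 6.7e-05) and by -1.31 from S-MI (4.5e-05). Gpihbp1 differed by -0.65 from M-MI (adjusted p = 0.016) and by -0.80 from S-MI (0.0037). Apln differed by -0.62 from M-MI (adjusted p = 0.0028) and by -0.59 from S-MI (0.005). For Gpihbp1 the call against M-MI was lost without L-MI replicate 4 (log2 -0.53, adjusted p = 0.058), the array with its lowest value, and when only these 2 groups were fitted (0.071). Without the 4 arrays set apart, the calls against S-MI were lost for Gpihbp1 (-0.67, adjusted p = 0.052) and Apln (-0.47, 0.066), and Aqp7 alone was called lower. Without L-MI replicate 4, the array apart at the high end, the differences from sham were -1.35 for Aqp7 (adjusted p = 7.5e-05), -0.79 for Gpihbp1 (0.0039) and -0.63 for Apln (0.0011). All 3 kept their calls against sham in each of the 22 alternative fits, between -1.45 and -1.20 for Aqp7, -0.97 and -0.79 for Gpihbp1 and -0.82 and -0.63 for Apln.

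**Figure D2:**
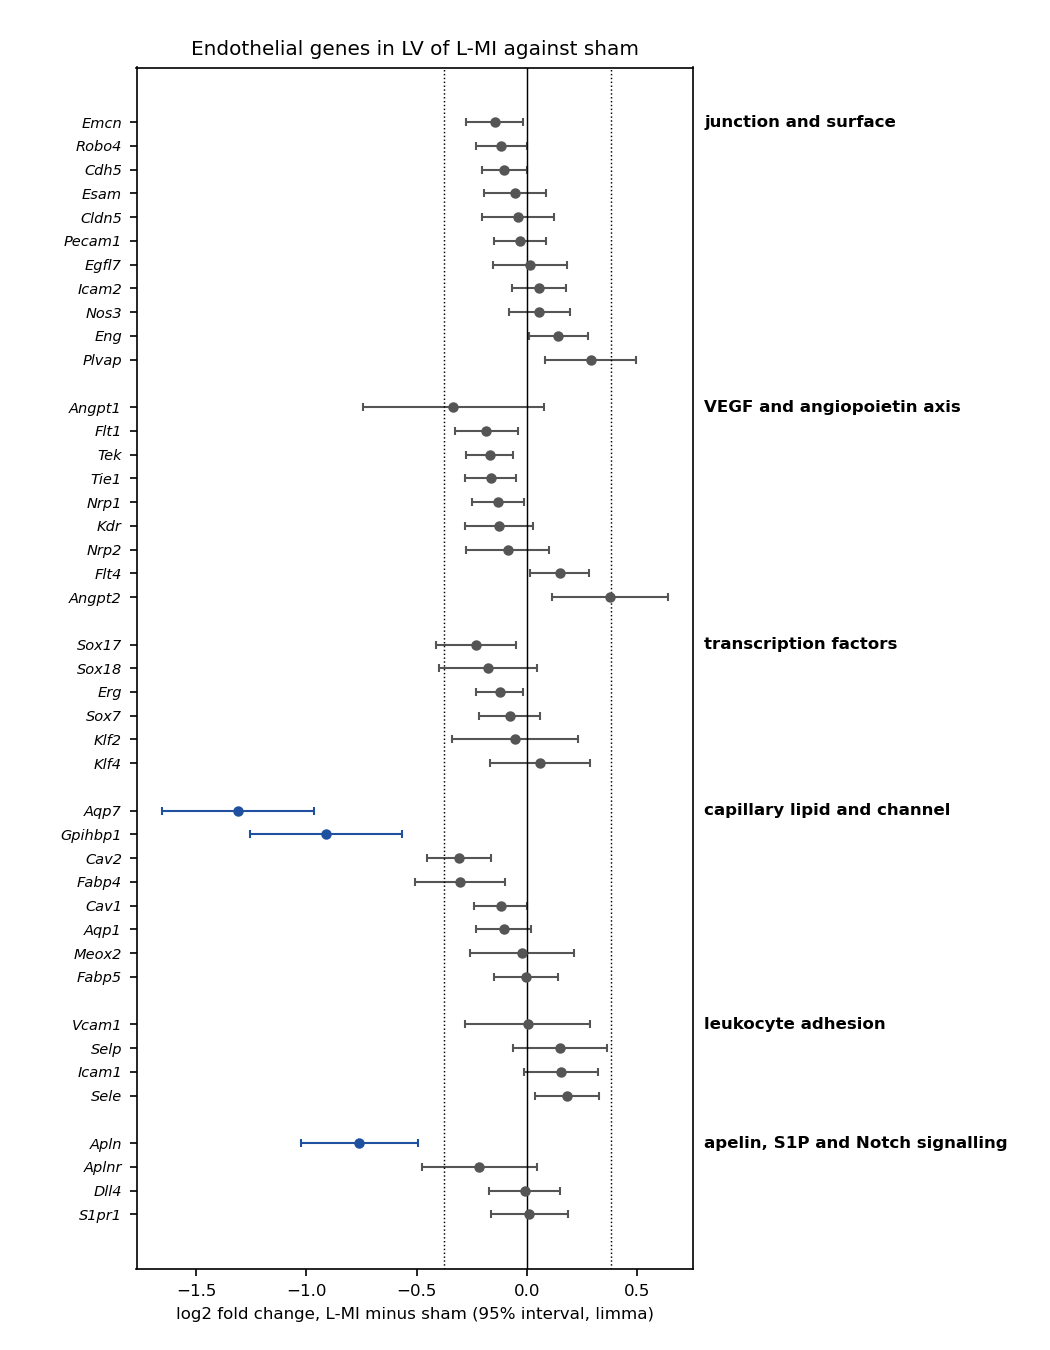
Log2 fold change of the 42 genes in LV of L-MI (n = 5) against sham (n = 6), ordered within each role group, with 95% limma intervals; dotted lines mark a fold of 1.3 in each direction and blue marks a called decrease. The 3 called genes lie left of -0.7, and the other 39 lie between -0.33 and 0.38.

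The junction and surface genes, the usual markers of endothelial identity, had 0 of 11 called in L-MI against sham and the median log2 fold change nearest to 0 of the 6 groups, -0.03. At an unadjusted p under 0.05, 4 of the 11 (36.4%) differed, 2 in each direction, where 21.5% of all clusters differed. Pecam1 had a mean of 9.54 ± 0.12 (SD, n = 6) in sham and 9.51 ± 0.06 (n = 5) in L-MI, a difference of -0.03 with an interval of -0.15 to 0.09. Cdh5 had 10.44 ± 0.04 in sham and 10.33 ± 0.12 in L-MI (-0.10, interval -0.21 to 2.3e-04), with L-MI replicate 4 the lowest at 10.14. For 10 of the 11 genes the whole 95% interval lay within a 1.3-fold change in either direction, Plvap being the exception. The tight junction proteins Cldn5 (-0.04) and Esam (-0.05), the adhesion molecule Icam2 (0.05), the secreted matrix protein Egfl7 (0.01) and the nitric oxide synthase Nos3 (0.06) lay within 0.1 of sham. The sialomucin Emcn (-0.15, unadjusted p = 0.027), the guidance receptor Robo4 (-0.12, 0.048) and the TGF-beta co-receptor Eng (0.14, 0.037) passed an unadjusted p under 0.05, but none of the 3 passed the adjusted p. The median over the group became 0.03 without the 4 arrays set apart.

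Plvap, which forms the diaphragms of fenestrated and caveolar endothelium, had the smallest p of this group. Its signal ran from 5.71 through a median of 6.00 to 6.35 in sham and was 6.20, 6.16, 6.26, 6.55 and 6.35 in L-MI. The ranges overlapped through sham replicate 6 (log2 fold change 0.29, SE 0.10, adjusted p = 0.072). Against S-MI, where the arrays ran from 5.68 to 6.20, Plvap was called higher by 0.42 (SE 0.10, adjusted p = 0.0091), the 1 gene of 42 with such a call, beside 1.57% of all clusters. That call was lost on the fold threshold without L-MI replicate 4 (0.36) and without the 4 arrays set apart (0.37), where the adjusted p was 0.038 and 0.028.

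None of the 9 genes of the VEGF and angiopoietin axis was called, and 7 of the 9 log2 fold changes were negative (median -0.13). Tek, the angiopoietin receptor Tie2, ran from 9.99 through 10.08 to 10.12 in sham and was 9.84, 9.95, 9.88, 9.96 and 9.84 in L-MI. All 5 L-MI arrays lay below all sham arrays, and the adjusted p was 0.039 for a log2 fold change of -0.17 (SE 0.05), well under the fold threshold. Its partner Tie1 also had no overlap (-0.16, SE 0.06, adjusted p = 0.07). Of the VEGF receptors and co-receptors, Kdr differed by -0.13, Flt1 by -0.18 and Nrp1 by -0.13, with adjusted p of 0.34, 0.098 and 0.18. Nrp2 differed by -0.09 (adjusted p = 0.65).

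The angiopoietins had fold changes of opposite sign. Angpt2, released by activated endothelium and a context-dependent antagonist of Tie2, ran from 6.61 through 6.998 to 7.21 in sham and was 7.32, 7.25, 7.34, 7.27 and 7.42 in L-MI. The lowest L-MI array exceeded the highest sham array, as in 3.1% of all clusters. The difference of 0.38 (SE 0.13, adjusted p = 0.065) missed both thresholds narrowly. Both were passed without sham replicate 3 (0.43, adjusted p = 0.041), with array weights (0.41, 0.038) and without the 4 arrays set apart (0.45, 0.046). Over the 22 alternative fits the difference went down to 0.31 and the adjusted p up to 0.15. Angpt1, the agonist of Tie2 made mainly by cells around the vessel, had a mean of 9.03 ± 0.23 in sham and 8.70 ± 0.47 in L-MI (-0.33, SE 0.20, adjusted p = 0.36), with L-MI arrays between 8.05 and 9.26. The difference was -0.17 without L-MI replicate 5 and -0.48 without L-MI replicate 2. Its SD was the highest of all 42 genes in both M-MI and L-MI. Flt4, the VEGF-C and VEGF-D receptor, differed from sham by 0.15 (adjusted p = 0.18), from M-MI by 0.23 (0.027) and from S-MI by 0.22 (0.038), each under the fold threshold.

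Among the 6 transcription factors 0 were called, and 5 of the 6 log2 fold changes were negative (median -0.10). Sox17, which maintains arterial identity, ran from 8.61 through 8.68 to 8.96 in sham and was 8.41, 8.44, 8.402, 8.51 and 8.71 in L-MI. In L-MI 4 of the 5 arrays lay below all sham arrays and replicate 5 did not (-0.23, SE 0.09, adjusted p = 0.11). Its relatives Sox18 and Sox7 differed by -0.18 and -0.08, and the ETS factor Erg, which keeps junction genes on, by -0.12 (unadjusted p = 0.024, adjusted p = 0.15). The shear-stress factors Klf2 and Klf4 differed by -0.05 and 0.06, with SE of 0.14 and 0.11. Klf4 has 2 rows on the array, which differed by up to 0.26 in a single array.

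The 4 leukocyte adhesion genes had log2 fold changes at or above 0 (0.003 to 0.18, median 0.15), and 0 were called. Sele, or E-selectin, which slows rolling leukocytes, ran from 5.96 through 6.01 to 6.15 in sham and was 6.25, 5.99, 6.17, 6.38 and 6.26 in L-MI. Except for replicate 2, the L-MI arrays exceeded all sham arrays (0.18, SE 0.07, adjusted p = 0.11). Icam1, the ligand of leukocyte beta-2 integrins, was at 7.64, 7.23, 7.64, 7.73 and 7.75 in L-MI against 7.32 to 7.55 in sham. L-MI replicate 2 was below all sham arrays and the other 4 were above all of them (0.15, SE 0.08, adjusted p = 0.29). Without that replicate the difference was 0.25 for Icam1 (adjusted p = 0.0195) and 0.24 for Sele (0.024), still under the fold threshold. Over the 22 alternative fits it went down to 0.12 for Icam1 and 0.14 for Sele. The adjusted p went up to 0.50 and 0.30 in these fits. Against M-MI, Icam1 differed by 0.26 with an adjusted p of 0.0497 (SE 0.08), under the fold threshold. Selp, or P-selectin, differed from sham by 0.15 (-0.07 to 0.36), and Vcam1 by 0.003, with an interval of -0.28 to 0.29. Sele, Selp and Vcam1 lay below the median cluster in signal, where a microarray can understate changes, which was not tested here.

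**Figure D3:**
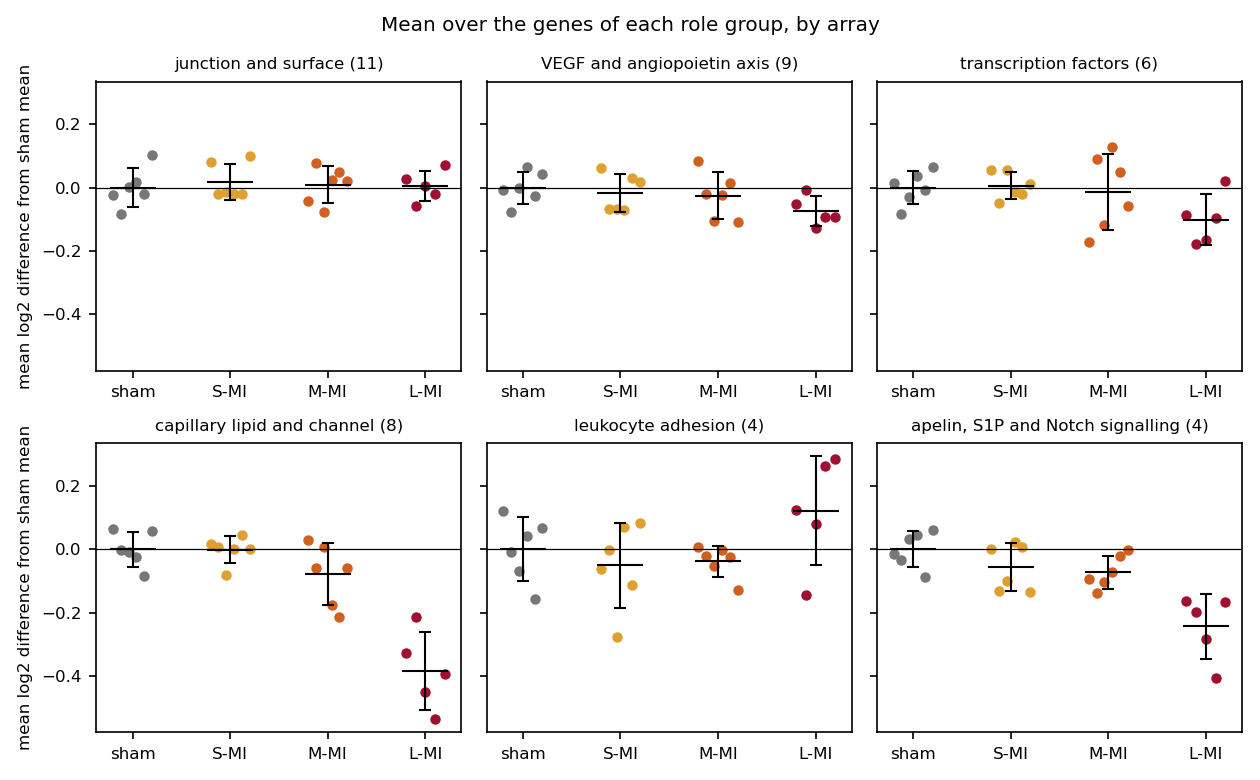
Mean deviation from the sham mean (log2 units, y axis) over the genes of each role group, by LV array; points are arrays, bars the group mean with its SD, and the number of genes is in each title. The capillary lipid panel drops to -0.39 in L-MI and the apelin, S1P and Notch panel to -0.24, while junction and surface stays at 0.01.

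The other role groups moved less by array. The means in L-MI were 0.01 ± 0.05 for junction and surface, -0.07 ± 0.05 for the VEGF and angiopoietin axis, -0.10 ± 0.08 for transcription factors and 0.12 ± 0.17 for leukocyte adhesion (SD, n = 5). Each of these overlapped the sham arrays. The apelin, S1P and Notch group stood at -0.24 ± 0.10, below all sham arrays, with Apln the 1 called gene in it. By the median of the genes in each array this group overlapped sham (L-MI replicate 1 at -0.07, sham replicate 5 at -0.09). The VEGF and angiopoietin axis did not overlap sham by that median, with L-MI arrays at -0.09 or lower and sham arrays at -0.06 or higher. It did overlap the smaller infarcts. S-MI replicates 2, 3 and 4 (-0.11, -0.097 and -0.10) and M-MI replicate 3 (-0.15) lay within the L-MI range. In M-MI the means of all 6 groups lay between -0.08 and 0.01, and in S-MI between -0.06 and 0.02.

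After smaller infarcts no gene of the list passed the test. In M-MI against sham, 0 of 42 genes had even an unadjusted p under 0.05 in limma, where 7.03% of all clusters did. Gpihbp1 had the lowest log2 fold change, -0.26 (SE 0.16, adjusted p = 0.74), and Aqp7 and Apln differed by -0.12 and -0.14. In S-MI against sham, 1 of 42 genes had an unadjusted p under 0.05, where 6.33% of all clusters did. This was Fabp5, at 6.51 through 6.57 to 6.69 in sham and 6.73 through 6.84 to 7.17 in S-MI, so that no arrays overlapped, as in 0.222% of all clusters that lay above (log2 fold change 0.29, SE 0.07, unadjusted p = 2.8e-04, adjusted p = 0.30). In L-MI the same gene differed from sham by -0.0044, and the difference between L-MI and S-MI was -0.29 (adjusted p = 0.011), under the fold threshold.

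Promoters of 3 genes are shown because the data bear on them in different ways: Apln was called lower, Cav2 passed the adjusted p without the fold, and Vcam1, a gene known for its induction through NF-kappaB, had no detected difference (interval -0.28 to 0.29). They are the 250 bases before the start of the gene, read 5′ to 3′ on the strand of the gene, from RefSeq on the GRCr8 build, and capitals mark the motif matches named next.
Apln, chrX:132091247-132091496, strand -: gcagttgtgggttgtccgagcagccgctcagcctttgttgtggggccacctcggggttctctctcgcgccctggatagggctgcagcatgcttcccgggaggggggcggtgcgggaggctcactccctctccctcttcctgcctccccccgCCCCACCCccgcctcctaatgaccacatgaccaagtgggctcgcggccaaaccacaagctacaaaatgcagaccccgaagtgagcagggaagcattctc
Cav2, chr4:46582431-46582680, strand +: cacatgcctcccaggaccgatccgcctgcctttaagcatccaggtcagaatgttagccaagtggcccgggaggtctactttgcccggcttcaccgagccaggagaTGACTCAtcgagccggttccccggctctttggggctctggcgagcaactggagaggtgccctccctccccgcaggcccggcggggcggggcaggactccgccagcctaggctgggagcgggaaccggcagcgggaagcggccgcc
Vcam1, chr2:206742784-206743033, strand -: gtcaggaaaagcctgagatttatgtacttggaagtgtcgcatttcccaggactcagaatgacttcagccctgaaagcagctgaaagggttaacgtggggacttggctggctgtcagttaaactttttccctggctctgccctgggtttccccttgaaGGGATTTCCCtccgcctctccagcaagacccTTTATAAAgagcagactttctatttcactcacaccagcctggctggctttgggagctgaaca

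In Apln the capitals are a KLF motif (CCNCACCC) that begins 99 bases before the start. In Cav2 they are an AP-1 motif (TGANTCA) at 145 bases, a palindrome that matches on both strands. In Vcam1 they are an NF-kappaB consensus at 93 bases and overlapping TATAAA matches on both strands at 62 and 60 bases. An entry was found for 26 of the 46 genes, and none for Aqp7, Gpihbp1, Fabp4 or Fabp5, whose promoters were therefore not searched. Over both strands, the KLF motif was in 8 of these 26 windows and in 13.6% of all 33469 promoters of the same length, AP-1 in 2 and in 6.34%, the NF-kappaB consensus in 4 and in 4.24%, and TATAAA in 9 and in 12.9%. The ETS motif AGGAAGT was in 5 (7.08% of all) and the SOX motif AACAAT in 2 (10.3%). The DR1 direct repeat, the element bound by PPAR receptors, was in 0 of the 26 and in 0.367% of all. For a motif this rare, 0 in 26 windows is the usual outcome, so nothing can be read from it. Such matches describe the letters of these windows and are not binding sites.

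Genes that work with the list were compared in the same fit. Of 18 measured genes of lipoprotein lipase action and fatty acid uptake, 1 was called higher and 3 lower. Lrp1, an endocytic lipoprotein receptor that macrophages and fibroblasts also carry, was higher (0.67, adjusted p = 1.4e-05). Acsl1, which activates fatty acids for oxidation, was lower by -0.56 (adjusted p = 3.7e-05), the nuclear receptor Pparg by -0.48 (0.0014) and the hormone-sensitive lipase Lipe by -0.44 (1.0e-04). Lpl, the enzyme that Gpihbp1 carries and named here after its value was seen, was at 12.995 ± 0.08 in sham and 12.91 ± 0.08 in L-MI, a difference of -0.08 (adjusted p = 0.30). The median over the 18 genes was -0.09.

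Of 9 measured ligands, 2 were called higher: Vegfd, a ligand of Flt4 (0.81, SE 0.14, adjusted p = 3.8e-04), and the angiopoietin-like protein Angptl2 (0.43, adjusted p = 0.0028). Of 9 leukocyte partners of the adhesion molecules, 2 were called higher. Selplg, which binds the selectins, rose by 1.26 (SE 0.28, adjusted p = 0.0051), with sham arrays from 7.56 to 8.55 and L-MI arrays from 8.61 to 9.94. Itgam, a beta-2 integrin chain that binds Icam1, rose by 0.49 (adjusted p = 0.013). These 2 leukocyte partners rose, while 0 of the 4 endothelial adhesion genes were called; the difference between them was not tested. Itgam also stands in the macrophage list. None of 12 Notch and arterial or venous genes was called (median -0.04). Of 29 further endothelial genes 1 was called, Car4, a carbonic anhydrase on the surface of capillary endothelium, which was lower by -0.82 (SE 0.11, adjusted p = 3.5e-05), with sham arrays from 9.004 to 9.49 and L-MI arrays from 7.95 to 8.70. The median over the 29 was -0.02.

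**Figure D4:**
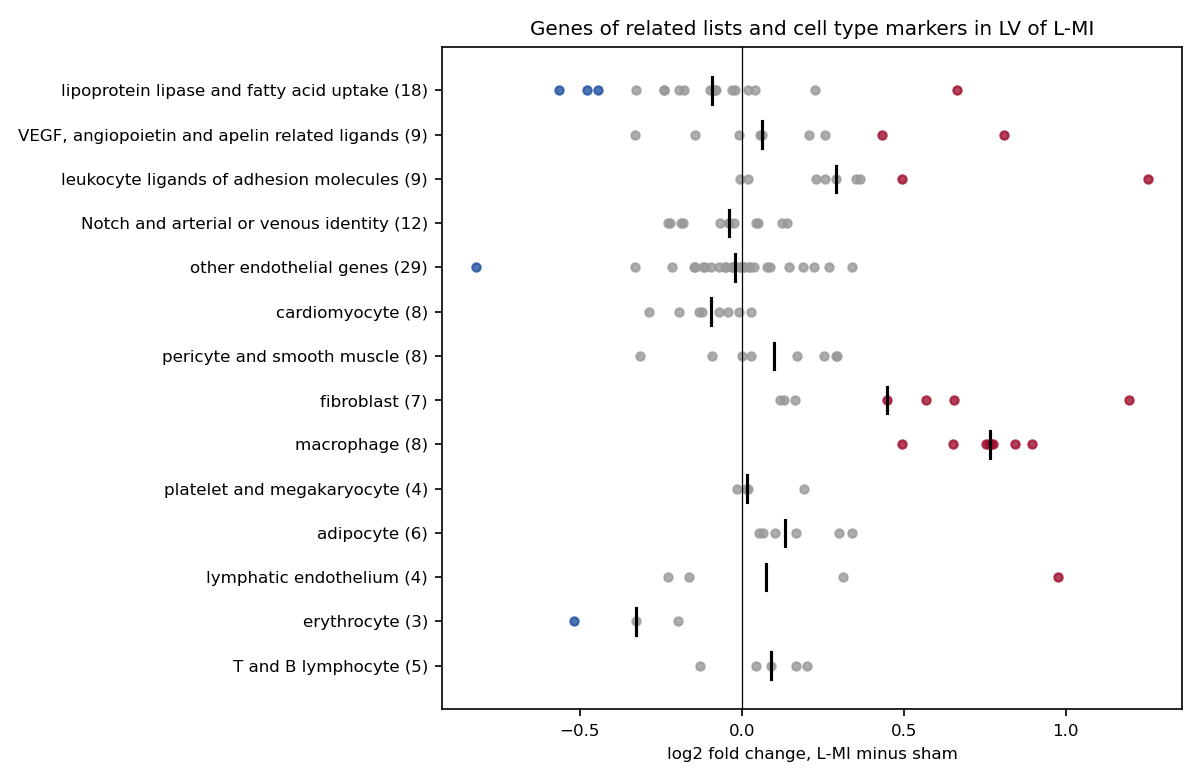
Log2 fold change (x axis) of L-MI against sham in LV for the genes of 5 related lists and 9 lists of cell type markers, with the number measured; each point is a gene, red and blue mark genes called higher and lower, and the bar is the median. The macrophage list, with a median of 0.77, and the fibroblast list, with 0.45, lie to the right, while the 29 further endothelial genes centre on -0.02.

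Markers of other cell types differed beside the endothelial genes. Linear signals summed over the 8 macrophage markers ran from 1671 to 2043 in sham and from 2517 to 3785 in L-MI, and over the 7 fibroblast markers from 11215 to 12293 and from 13351 to 16112. The sum over the 8 cardiomyocyte markers ran from 80702 to 81870 in sham and from 75024 to 79238 in L-MI. None of these ranges overlapped. Summed over the 11 junction and surface genes the signal ran from 8625 to 9680 in sham and from 8673 to 9641 in L-MI, and over the 8 capillary lipid genes from 15757 to 16851 and from 11817 to 13941. Over the VEGF and angiopoietin axis it ran from 7372 to 7893 in sham and from 6822 to 7272 in L-MI. Over the apelin, S1P and Notch genes it ran from 2819 to 3042 and from 2563 to 2815. The capillary lipid, VEGF and apelin sums thus did not overlap between sham and L-MI. Those of the junction, transcription factor and leukocyte adhesion genes did. Part of the signal of Icam1, Fabp4, Fabp5 and Selplg can come from macrophages, and the part of other cell types in these results was not tested. No share of cells was measured. Whether the lower Aqp7 signal arose in capillary cells, in heart muscle cells, whose marker sum was also lower, or elsewhere was not tested. Adipocytes also carry Aqp7 and Fabp4. Of 6 adipocyte markers 0 were called, all 6 log2 fold changes were positive (0.05 to 0.34), and Adipoq and Lep were among the 30% dimmest clusters of the LV arrays. Platelet markers, which share Selp, had 0 of 4 called, and T and B lymphocyte markers 0 of 5. Of 4 lymphatic markers 1 was called, Lyve1 (0.98, adjusted p = 5.1e-05), which some macrophages also carry, and of 3 erythrocyte markers 1 was called, Slc4a1 (-0.52, adjusted p = 0.018).

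Mononuclear blood cells should hold few endothelial cells, but the list as a whole was not dim there. Of the 42 genes, 9 were among the 30% dimmest clusters, a share smaller than 30%, and 20 were above the median cluster. The 9 were Emcn, Robo4, Flt1, Erg, Fabp4, Aqp7, Meox2, Vcam1 and Sele. Pecam1, Icam2, Angpt1, Klf2 and S1pr1 were bright, with 91.0% to 98.8% of all clusters at or below them. In L-MI against sham, 0 of 42 were called with a 1.2-fold change and an unadjusted p up to 0.05, where 0.924% of all clusters were. An unadjusted p under 0.05 alone was reached by 1 gene, beside 3.77% of all clusters. This was Klf2, a factor that also keeps T cells quiescent, with a log2 fold change of -0.25 (SE 0.09, unadjusted p = 0.016 and adjusted p = 1 by limma), just under the fold threshold. Klf2 passed both thresholds without sham replicate 1 (-0.29), sham replicate 2 (-0.29) or L-MI replicate 2 (-0.31). Leaving out any other single array gave no call. Of the genes that fell in LV, Aqp7 was at 5.401 ± 0.14 in sham and 5.41 ± 0.15 in L-MI in these cells, Gpihbp1 at 7.10 ± 0.09 and 7.11 ± 0.08, and Apln at 6.62 ± 0.13 and 6.70 ± 0.14 (SD, n = 6 and 5). LV and PBMC arrays were apparently normalised apart, with array medians of 6.52 to 6.61 and 6.97 to 7.01, so that no level was compared between them.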

How the data were processed

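Total RNA of 23 LV and 11 PBMC samples was hybridised by the authors to Affymetrix Rat Gene 1.0 ST arrays. The deposited values are log2 signals, which the authors made by RMA normalisation in the Partek Genomics Suite, and versions are not given in the sources used here. All per-sample columns were mapped to samples (0 left out). Of 29214 transcript clusters, 15310 had 1 gene symbol in the platform annotation, 323 had several and 13581 had none; no gene was named from a cluster with several. Cav2 and Fabp5 each had 2 identical rows. The number of arrays limits the precision.

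Differences were tested with limma 3.58.1 in R 4.3.3 (lmFit, contrasts.fit, eBayes) over all clusters, in 1 model of the 4 LV groups and 1 of the 2 PBMC groups, without covariates. Calls used the thresholds of the study's methods: in LV a 1.3-fold change with p adjusted by Benjamini-Hochberg up to 0.05, and in PBMCs a 1.2-fold change with an unadjusted p up to 0.05. Tables and plots were made in Python 3.11.15 with pandas 2.3.3 and matplotlib 3.10.9. The fit was tested on simulated data. Array-by-array values are given for the genes called in L-MI against sham and, in each role group, for the gene not called with the smallest p; of the related lists, the called genes with the smallest p are named, up to 4 a list. Angpt2, Icam1 and Fabp5 were added after their values were seen.

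The genes, role groups and lists were chosen with earlier results of these data known. Replicate numbers were not used as pairs in the main fit. Deviations from the group mean of same-numbered LV arrays of different groups correlated with a median r of 0.0073 over 33 pairs. The r ran from -0.26 to 0.26, with 2 pairs above 0.1, which cannot exclude a pairing of some arrays. Arrays are biological replicates per the labels; whether an LV and a PBMC array came from the same rat is not given there. Alternatives covered moderation, the groups in the fit, variance trend, array weights, dim clusters, 2 rescalings, thresholds, the row per symbol, the replicate block and each array left out. A fit without the 4 arrays set apart on the first principal component was chosen after seeing the data. Promoters are those of RefSeq on GRCr8.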

Additional observations from a re-analysis of the deposited data

Results flagged for a closer look

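Within 1 group of LV arrays, a single array stood far from the others in 14 of 168 combinations of gene and group (8.33%), where chance flags about 1 in 20. In L-MI, replicate 2 was the lowest for Icam1 (7.23, the next at 7.64) and for Eng (11.21, the next at 11.45), and replicate 3 the lowest for Tie1 (9.16). In M-MI, replicate 2 was the lowest for Apln (7.83, the next at 8.34) and the highest for Tek (10.23), replicate 4 was the highest for Pecam1 (9.71) and for Selp (6.11, the next at 5.67), and replicate 3 was the lowest for Nrp2 (8.75, the next at 9.08). In S-MI, replicate 5 was the highest for Fabp5 (7.17, the next at 6.86), replicate 1 the lowest for Aqp1 (11.86) and the highest for Robo4 (8.11), and replicate 6 the highest for Eng (11.50). In sham, replicate 5 was the lowest for Nrp1 (10.66) and for Meox2 (8.28).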

How the results depend on the processing

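The count of genes called lower in L-MI against sham was 3 under the alternatives run, except 5 with no fold threshold, which added Cav2 and Tek, and 3 with any 1 array left out. The count called higher was 0, except 1 (Angpt2) with array weights and without the 4 arrays set apart, and 0 to 1 with 1 array left out. Against M-MI, no fold threshold gave 2 genes higher (Flt4 and Icam1) and 4 lower, and the count lower was 2 to 3 with 1 array left out. Against S-MI, the count higher was 2 with no fold threshold, 0 at a fold of 1.5, 0 without the 4 arrays and 0 to 1 with 1 array left out; the count lower was 6 with no fold threshold and 1 without the 4 arrays. In PBMCs, 1 gene (Klf2) was lower with no fold threshold, and 0 to 1 with 1 array left out. The replicate block kept 3 lower and 0 higher in L-MI against sham and changed no other call. The cause of these shifts was not tested, beyond the threshold named.

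Of 924 alternative values of a gene's log2 fold change in L-MI against sham, 34 changed sign, all for genes within 0.06 of 0. With array weights Meox2 became 0.034 and Dll4 0.028; with median centring Egfl7 became -0.017, Vcam1 -0.026 and S1pr1 -0.019; with a repeated quantile normalization Vcam1 became -0.0201 and Dll4 0.0052; with the replicate block S1pr1 became -7.7e-04; and without the 4 arrays Pecam1 became 0.0296, Meox2 0.015 and Dll4 0.0304. With 1 array left out the ranges were -0.071 to 0.0727 for Meox2, -0.0699 to 0.0641 for Dll4, -0.0394 to 0.0517 for Egfl7, -0.0806 to 0.0588 for Vcam1, -0.0212 to 0.0335 for S1pr1, -0.109 to 0.00366 for Klf2, -0.0424 to 0.0403 for Fabp5 and -0.0717 to 0.0105 for Cldn5. Median centring moved the median of all clusters from -0.0059 to -0.035 and the share of calls that were higher from 64.6% to 54.9%. The 6 medians of role groups moved by less than the SD of the sham arrays.

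Limits: RMA values carry no detection call, so a dim gene such as Selp can change unseen. With 5 or 6 arrays a group, the intervals of Angpt1, Vcam1 and Klf2 leave room for differences of 0.2 or more in log2.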
